A study of Mus musculus with 13 samples.

Results

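Lmo4, Cux1, Cux2, Rorb, Tbr1, Fezf2, Bcl11b, Tle4 and Neurod6 are transcriptional regulators that mark projection neurons of particular layers of the cerebral cortex. They were followed as a group of 9 genes in brain hemispheres of creatine-fed and untreated mice. All probe sets whose only gene symbol was one of these names, current or older, were taken, which gave 26 of the 45101 probe sets on the array. The 4 upper layer genes (Lmo4, Cux1, Cux2, Rorb) held 16 probe sets, the 4 deep layer genes (Tbr1, Fezf2, Bcl11b, Tle4) held 9, and Neurod6, a gene of pyramidal neurons in all layers, held 1.

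Per the labels, 6 male C3HeB/FeJ mice were given pellets containing 1% creatine for 6 months, and 7 males of the same strain were given pellets of equal caloric content that lacked creatine. All were 10 to 12 weeks old when feeding began, and 1 array was run per mouse on total RNA of a brain hemisphere. The arrays are labelled as biological replicates. The 7 untreated mice are the only control group, and no other tissue, strain or duration of feeding was measured.

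Neurons of the neocortex are born in an inside-out order, so that deep layers form before upper layers, and each layer is built with its own set of transcription factors. Upper layer neurons mostly connect areas of cortex with each other, while deep layer neurons send axons to the thalamus, brainstem and spinal cord. Many of these factors stay on in the adult cortex, and several also serve other regions: Bcl11b is a factor of striatal projection neurons, Tbr1 of olfactory bulb projection neurons, and Rorb of thalamic and retinal neurons. In RNA of a whole hemisphere, fewer cells of a type and less RNA per cell cannot be told apart.

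Of the 26 probe sets, 17 had a higher mean in creatine-fed mice and 9 a lower one, where 42.2% of all 45037 tested probe sets were higher. None of the 26 passed the adjusted p threshold of 0.05 in limma, against 0.00888% of all probe sets. At an unadjusted p under 0.05 there were 7 of the 26, 4 higher and 3 lower, where 11.9% of all probe sets reached that level (4.17% higher, 7.7% lower). The 7 were 1 probe set of Lmo4, 2 of Rorb and 1 of Bcl11b on the higher side, and 2 of Cux1 and 1 of Cux2 on the lower side. This count was 4 without creatine-fed replicate 5. By the exact permutation test of the mean log2 difference, 6 of the 26 had an unadjusted p under 0.05 and none passed after adjustment. The smallest p that this test can give, 0.000583, became 0.17 after adjustment, so no probe set on the array could pass by it.

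**Figure D1:**
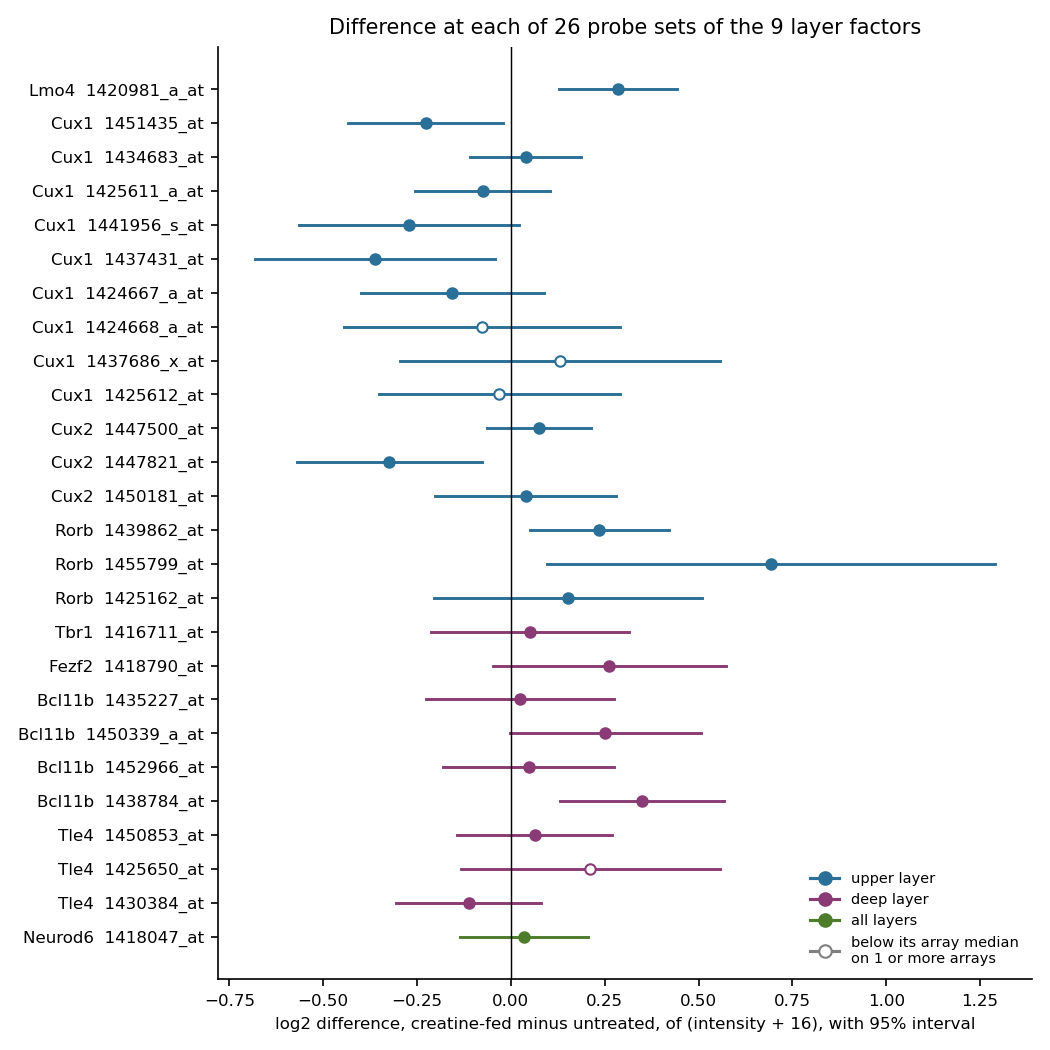
Log2 difference of creatine-fed minus untreated mice, of intensity plus 16, at each of the 26 probe sets, with its 95% interval from limma; colours give the layer group and open circles mark probe sets below their array's median on at least 1 array. Rorb probe set 1455799_at has the widest difference, 0.69, and the lowest is -0.36 at Cux1 probe set 1437431_at.

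Sequences just before a transcription start are shown for 1 of 3 annotated starts of Lmo4, the member whose groups stood apart, and for both annotated starts of Rorb, whose probe sets all had higher means. They are 250 bases long, 5′ to 3′ on the minus strand of GRCm38.p6, from RefSeq, and the capitals mark each CANNTG, the E-box letters that basic helix-loop-helix factors such as Neurod6 recognise. The Lmo4 sequence lies at chr3:144202397-144202646, that of the upstream Rorb start at chr19:19111197-19111446, and that of the downstream Rorb start at chr19:19001118-19001367.
Lmo4: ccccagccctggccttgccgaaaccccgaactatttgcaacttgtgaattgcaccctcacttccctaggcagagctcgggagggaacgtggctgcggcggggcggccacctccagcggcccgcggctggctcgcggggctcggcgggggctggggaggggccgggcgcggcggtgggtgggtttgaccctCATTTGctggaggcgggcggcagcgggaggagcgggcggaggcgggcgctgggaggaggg
Rorb upstream start: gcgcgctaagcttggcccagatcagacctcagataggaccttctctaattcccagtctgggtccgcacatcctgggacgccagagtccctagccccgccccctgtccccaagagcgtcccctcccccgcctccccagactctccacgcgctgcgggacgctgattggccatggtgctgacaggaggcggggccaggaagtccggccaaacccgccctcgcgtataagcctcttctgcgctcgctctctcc
Rorb downstream start: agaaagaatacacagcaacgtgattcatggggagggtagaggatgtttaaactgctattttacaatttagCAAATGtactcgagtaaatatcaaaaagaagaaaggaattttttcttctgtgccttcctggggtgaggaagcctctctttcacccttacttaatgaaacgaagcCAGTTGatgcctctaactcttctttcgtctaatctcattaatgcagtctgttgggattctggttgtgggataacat

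The Lmo4 window shown holds 1 E-box and 25 CG pairs, with a GC content of 73.6%, and was picked with these counts in view. A second Lmo4 window overlaps it, with 1 E-box, 29 CG pairs and 76.8% GC, and the window at chr3:144205256-144205505 holds 0 E-boxes, 44 CG pairs and 82.4% GC. The upstream Rorb window holds 0 E-boxes, 18 CG pairs and 66% GC, and the downstream one 2 E-boxes, 4 CG pairs and 39.2% GC. Across 32851 windows of this length before RefSeq starts, the median was 6 CG pairs and 52.4% GC. All 9 genes had a window, 14 in all, and 8 of the 14 held CANNTG, against 66.2% of all windows. AGGTCA, the core letters of sites bound by Rorb and other nuclear receptors, was in 0 of the 14 (either strand), against 14% of all windows. Which Lmo4 or Rorb start gives the RNA read by a given probe set is not given in the sources used here.

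Lmo4, a LIM-only protein that binds no DNA itself and bridges transcription factors to the cofactor Ldb1, stood highest among the members by the size of its test. It has 1 probe set, 1420981_a_at. Its intensity ran from 714 to 912 in creatine-fed mice (median 735) and from 546 to 667 in untreated mice (median 638). All 6 creatine-fed mice lay above every untreated mouse. Of the 26 probe sets this was the only one whose groups did not overlap, where 0.56% of all probe sets had such groups (0.24% with creatine-fed mice higher). The highest creatine-fed mouse, replicate 6 at 912, stood well above the next at 757, while the other 5 lay within 714 to 757. The means were 762 ± 75.7 (SD, n = 6) and 621 ± 41.2 (SD, n = 7), a log2 difference of 0.29 (SE 0.07, 95% interval 0.13 to 0.44).

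Limma gave Lmo4 an adjusted p of 0.186, the 387th smallest p of the 45037. The exact permutation p was 0.000583, the smallest that 1716 splits of the mice can give, and 0.17 after adjustment over all probe sets. Without creatine-fed replicate 6 the log2 difference was 0.23, and over the 13 fits that leave out 1 mouse it ran from 0.23 to 0.30. With eBayes set to trend and robust, Lmo4 passed (adjusted p = 0.0441), the only member to do so under any setting tried. That setting called 161 of the 45037 probe sets, against 4 in the main fit. Creatine-fed replicate 6 also had the highest mean of 8 markers of forebrain glutamatergic neurons, at a mean log2(intensity + 16) of 9.21, where the other 5 creatine-fed mice lay between 8.69 and 8.92 and untreated mice between 8.71 and 8.82. The part of these markers in the Lmo4 value was not tested.

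Rorb, an orphan nuclear receptor of the granular layer that receives thalamic input, had higher means at all 3 probe sets. At 1439862_at, intensity ran from 204 to 273 in creatine-fed mice (median 247.5) and from 184 to 252 in untreated mice (median 197). The groups overlapped: 3 creatine-fed mice lay above all untreated mice, and untreated replicate 3, at 252, lay above 3 creatine-fed mice. The means were 245 ± 27.0 (SD, n = 6) and 206 ± 23.3 (SD, n = 7), a log2 difference of 0.24 (SE 0.09, limma adjusted p = 0.309).

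At Rorb probe set 1455799_at the mice fell into a high and a low range in both groups. In creatine-fed mice 5 of 6 read 232 to 265, above every untreated mouse, and replicate 4 read 82. In untreated mice replicates 1 and 2 read 209 and 201, and the other 5 read 65 to 128. The log2 difference was 0.69 (SE 0.28, 95% interval 0.10 to 1.29, limma adjusted p = 0.348), the widest of the 26 probe sets and the one with the largest error. Without creatine-fed replicate 4 it was 0.93 (adjusted p = 0.132). The dimmest Rorb probe set, 1425162_at, read 55 to 134 in creatine-fed and 54 to 105 in untreated mice, a log2 difference of 0.15 (95% interval -0.21 to 0.51). That value depended on single mice: it was 0.05 without creatine-fed replicate 6, 0.08 without untreated replicate 6, 0.09 without creatine-fed replicate 3 and 0.27 without creatine-fed replicate 4. With the 3′/5′ ratio of control transcripts as a covariate it was 0.05. Creatine-fed replicate 4 was also the lowest of its group there, and untreated replicates 1, 2 and 7 the highest of theirs. At 1439862_at the order was different, with creatine-fed replicate 4 among the high mice, so the Rorb probe sets did not rank the mice alike.

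**Figure D2:**
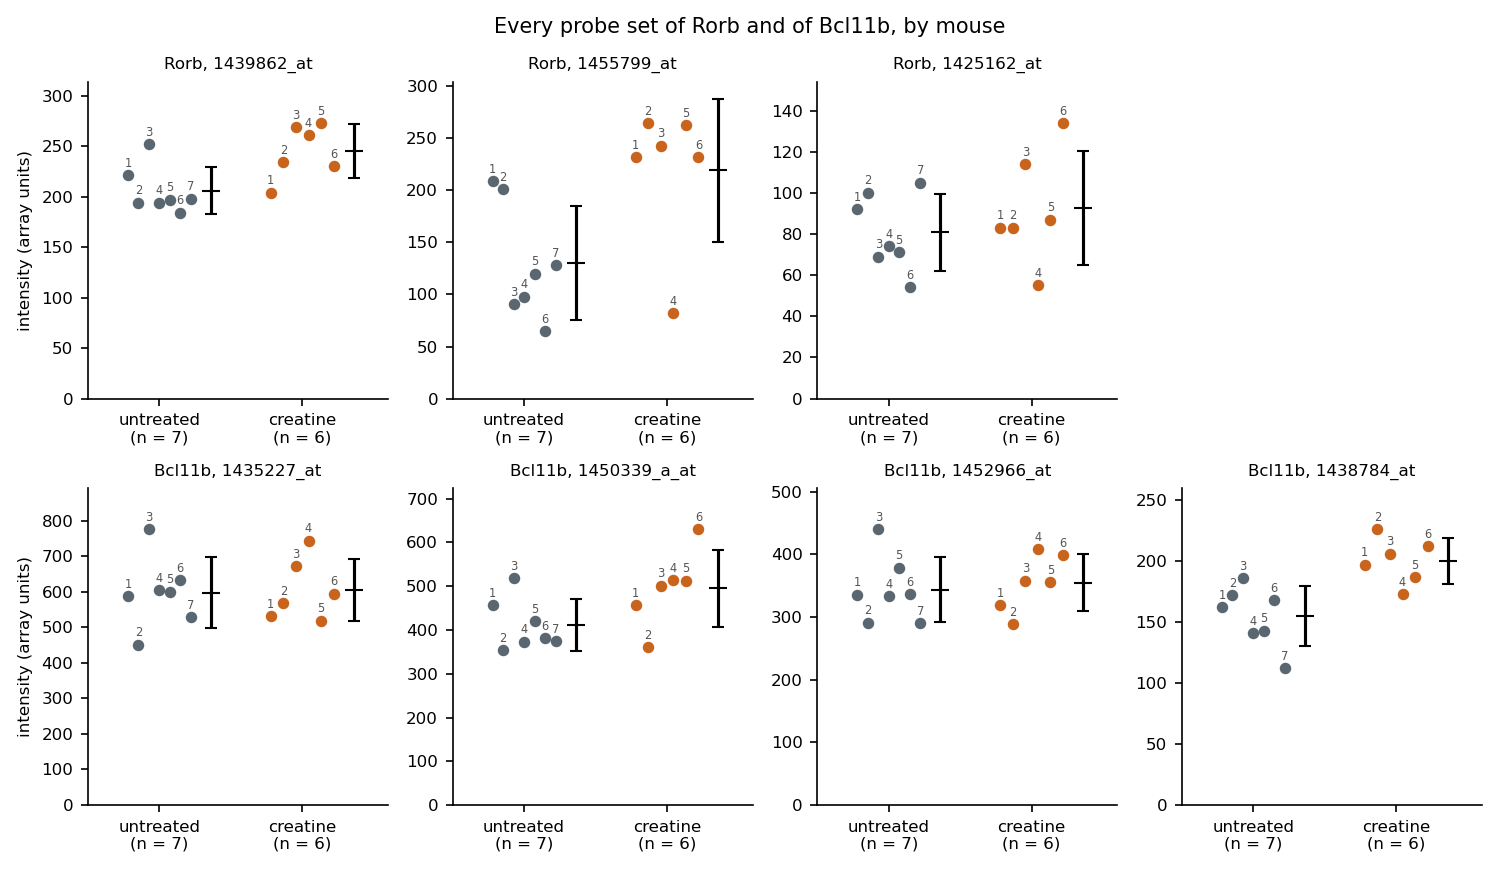
Intensity in array units of each of the 3 Rorb and 4 Bcl11b probe sets in every mouse, numbered by replicate, with the mean and SD of each group beside the points (untreated n = 7, creatine n = 6). At Rorb 1455799_at, 5 creatine-fed mice lie at 232 to 265 and replicate 4 at 82; at Bcl11b 1438784_at, 5 of 6 creatine-fed mice lie above the untreated maximum of 186.

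Cux1 and Cux2 are related homeodomain proteins of upper layer neurons that shape their dendrites and spines. Cux1 had 9 probe sets, of which 7 had lower means in creatine-fed mice and 2 higher ones. At 1451435_at the intensity ran from 199 to 250 in creatine-fed mice (median 225.5) and from 202 to 304 in untreated mice (median 260). None of the 6 creatine-fed mice reached the mean of the controls. The means were 222.5 ± 17.9 (SD, n = 6) and 265 ± 39.2 (SD, n = 7), a log2 difference of -0.23 (SE 0.10, limma adjusted p = 0.376). Of the controls, 5 untreated mice lay above the creatine-fed maximum of 250, and untreated replicates 2 and 5, at 232 and 202, lay within the creatine-fed range.

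At Cux1 probe set 1437431_at the intensity ran from 51 to 92 in creatine-fed mice and from 57 to 116 in untreated mice. The log2 difference was -0.36 (95% interval -0.68 to -0.04, limma adjusted p = 0.362). In the same direction, 1441956_s_at differed by -0.27 and 1424667_a_at by -0.16, with intervals that reached 0.02 and 0.09. The latter was -0.10 without creatine-fed replicate 2 and -0.24 without creatine-fed replicate 6. The second brightest probe set, 1434683_at, had means of 185 ± 10.6 (SD, n = 6) and 180 ± 16.2 (SD, n = 7), and its log2 difference was 0.04 with an interval of -0.11 to 0.19. Differences at Cux1 probe sets thus lay on both sides of 0. Both higher ones, 1434683_at and 1437686_x_at, had intervals that spanned 0, and both at an unadjusted limma p under 0.05 were lower. The Cux1 gene also makes CASP, a Golgi protein without the homeodomain, by alternative splicing, and which probe sets read which transcript is not given in the sources used here.

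Another 3 Cux1 probe sets, 1424668_a_at, 1437686_x_at and 1425612_at, were dim, below their array's median on 8, 13 and 13 of the 13 arrays. Their log2 differences of -0.08, 0.13 and -0.03 had intervals that spanned 0. The last of these turned to 0.03 after quantile normalization and to 0.02 after centring each array on its median. The remaining one, 1425611_a_at, read 130 ± 17.1 (SD, n = 6) against 137 ± 12.0 (SD, n = 7).

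Cux2 was higher at 2 of its 3 probe sets and lower at the other. Its brightest, 1447500_at, ran from 317 to 356 in creatine-fed mice (median 337) and from 283 to 357 in untreated mice (median 312), so the creatine-fed values lay inside the untreated range. Its log2 difference was 0.07 (95% interval -0.07 to 0.21). At 1447821_at the order was reversed: 4 of 6 creatine-fed mice, at 120 to 147, lay below every untreated mouse, while replicates 5 and 6 read 209 and 183 within the untreated range of 162 to 218. The log2 difference there was -0.32 (SE 0.11, limma adjusted p = 0.29). At 1450181_at it was 0.04, and -0.03 without creatine-fed replicate 6.

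Among the deep layer genes, Tbr1, a T-box factor that specifies corticothalamic neurons, had a difference smaller than its error. Its probe set 1416711_at ran from 222 to 345 in creatine-fed mice (median 298) and from 198 to 352 in untreated mice (median 279). The highest and the lowest of the 13 mice were both untreated, replicates 3 and 2. The log2 difference was 0.05 with a 95% interval of -0.21 to 0.32, and it turned to -0.02 without untreated replicate 2.

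Fezf2, a zinc finger factor that directs subcortical projection neurons of the deep layers, ran from 92 to 171 in creatine-fed mice (median 129) and from 63 to 128 in untreated mice (median 112). The groups overlapped: 3 creatine-fed mice lay above all untreated mice, and replicate 1, at 92, was below 6 untreated mice. The log2 difference at 1418790_at was 0.26 (SE 0.14, 95% interval -0.05 to 0.57, limma adjusted p = 0.507). Untreated replicate 2, at 63, was the lowest of all, and without it the difference was 0.16.

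Bcl11b, a zinc finger factor downstream of Fezf2 in corticospinal neurons, had 4 probe sets, all with higher creatine-fed means but by unlike amounts. At 1438784_at the intensity ran from 173 to 226 in creatine-fed mice (median 201.5) and from 112 to 186 in untreated mice (median 162). Of the creatine-fed mice 5 lay above every untreated mouse, and replicate 4, at 173, lay below untreated replicate 3, at 186. The means were 200.2 ± 18.8 (SD, n = 6) and 155 ± 24.7 (SD, n = 7), a log2 difference of 0.35 (SE 0.10, limma adjusted p = 0.224; exact permutation p = 0.0035, 0.206 after adjustment).

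The brightest Bcl11b probe set, 1435227_at, showed no such difference: it ran from 519 to 744 in creatine-fed mice (median 582) and from 451 to 776 in untreated mice (median 601). Its log2 difference of 0.02 had a 95% interval of -0.23 to 0.27, and its sign turned without creatine-fed replicate 3 or 4 or untreated replicate 2 or 7. At 1450339_a_at the difference was 0.25 (95% interval -0.002 to 0.507) and at 1452966_at 0.05 (95% interval -0.18 to 0.27). Both of these intervals spanned 0. The interval at 1435227_at and that at 1438784_at overlap, and the difference between them was not tested.

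Tle4, a Groucho-family corepressor of corticothalamic neurons, ran at 1450853_at from 452 to 556 in creatine-fed mice (median 478.5) and from 367 to 576 in untreated mice (median 469). The creatine-fed values lay inside the untreated range, and the log2 difference was 0.06 (95% interval -0.14 to 0.27). The dimmer probe sets of Tle4 differed by 0.21 at 1425650_at and -0.11 at 1430384_at, both with intervals that spanned 0. The former was 0.12 without creatine-fed replicate 6 and the latter -0.06 without untreated replicate 4. Neurod6, a helix-loop-helix factor of pyramidal neurons, ran from 338 to 415 in creatine-fed mice (median 376) and from 307 to 422 in untreated mice (median 355). Its log2 difference at 1418047_at was 0.03 with an interval of -0.14 to 0.21, and the creatine-fed values again lay inside the untreated range.

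**Figure D3:**
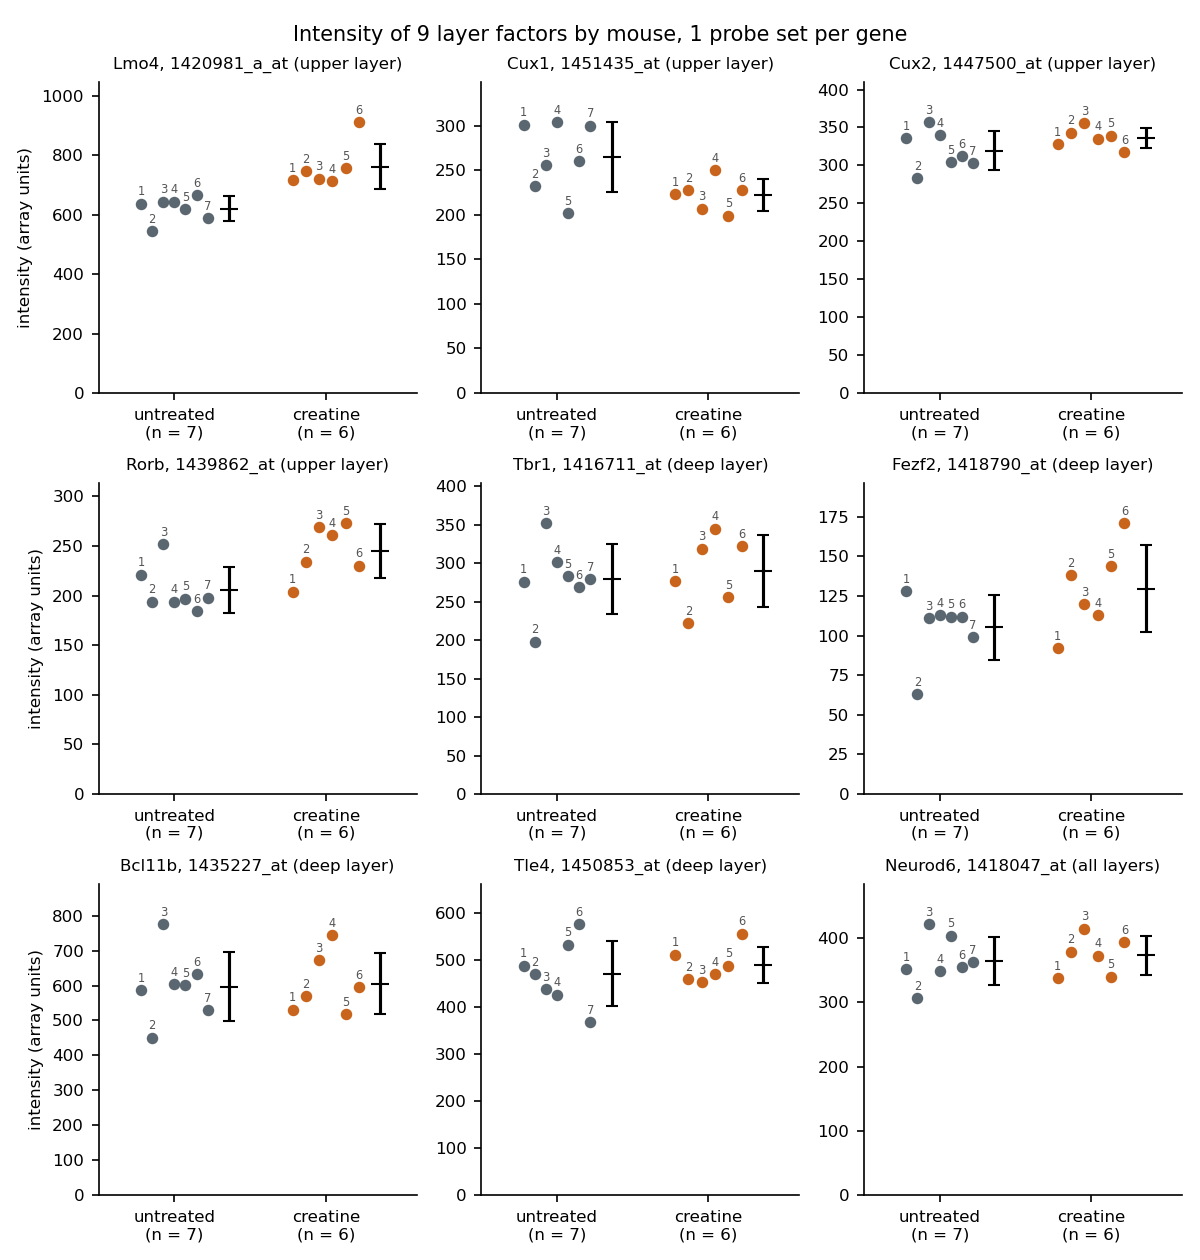
Intensity in array units of each of the 9 genes at its brightest probe set in every mouse, numbered by replicate, with the mean and SD of each group beside the points (untreated n = 7, creatine n = 6). Only Lmo4 has groups that do not overlap, at 714 to 912 against 546 to 667; untreated replicate 3 is the highest mouse for Bcl11b, Tbr1 and Neurod6, and untreated replicate 2 the lowest for these and for Lmo4, Cux2 and Fezf2.

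Upper and deep layer genes can be set side by side. Of 16 upper layer probe sets 8 were higher and 8 lower, with a median log2 difference of 0.00, and 6 had an unadjusted p under 0.05, 3 in each direction. Of 9 deep layer probe sets 8 were higher and 1 lower, with a median of 0.06, and 1 had an unadjusted p under 0.05. Over all 45037 tested probe sets 42.2% were higher, and 11.9% had an unadjusted limma p under 0.05 (4.17% higher, 7.7% lower). The median over all tested probe sets was -0.03, and it moved to 0.02 when each array was centred on its median. With that centring 9 of 16 and 8 of 9 were higher, against 56.7% of all probe sets. After quantile normalization 9 of 16 and 8 of 9 were higher, against 48.8% of all probe sets. In the main fit, at the brightest probe set of each gene, 3 of 4 upper layer and 4 of 4 deep layer genes were higher, where 41.5% of 18161 named genes were. Without untreated replicate 2, 2 of the 4 deep layer genes were higher at that probe set. The difference between the layer groups was not tested.

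The hemispheres differed in their levels of cerebellar marker RNA. Of the 9 members at their brightest probe sets, 2 (Bcl11b and Tbr1) ran against these levels by Pearson's r after adjustment and none did by Spearman's rho. The 11 measured cerebellar markers summed to 4563 to 12759 in creatine-fed and 1588 to 16813 in untreated mice. Untreated replicate 3 stood apart: the granule cell receptor subunit Gabra6 read 22 there and 1248 to 2494 in the other untreated mice, and the Purkinje cell gene Pcp2 read 27 against 1496 to 2881. Creatine-fed replicate 4 was the next lowest, with Gabra6 at 556 and Pcp2 at 736. The mice with the least and the most of these markers, untreated replicates 3 and 2, were also the highest and the lowest for Bcl11b at 1435227_at, for Tbr1 and for Neurod6. Untreated replicate 3 also had the highest mean log2(intensity + 16) of olfactory bulb markers, 7.47, and of striatal markers, 8.75, where the other 12 mice lay between 6.16 and 7.07 and between 8.34 and 8.61. The part of the striatal markers in the members' values was not tested.

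Over the 13 mice, with group means subtracted, the cerebellar marker mean ran against Bcl11b with Pearson's r of -0.79 (permutation p = 0.00036, adjusted p = 0.0032 over the 9 members) and Spearman's rho of -0.61 (permutation p = 0.028, adjusted p = 0.11). Without untreated replicate 3 and creatine-fed replicate 4, r was -0.54. For Tbr1 r was -0.69 (permutation p = 0.011, adjusted p = 0.049) and rho -0.60 (permutation p = 0.034, adjusted p = 0.11), with r of -0.60 without these 2 mice. For Neurod6 r was -0.60 (permutation p = 0.026, adjusted p = 0.059) and rho -0.59 (permutation p = 0.037, adjusted p = 0.11), with r of -0.55 without the 2 mice. For Rorb at 1439862_at r was -0.63 (permutation p = 0.022, adjusted p = 0.059) but rho -0.24 (permutation p = 0.43), and r was -0.07 without the 2 mice, so that relation rests on them. For Lmo4 r was -0.29 (permutation p = 0.29, adjusted p = 0.43) and rho -0.43 (permutation p = 0.14, adjusted p = 0.31), and r was -0.84 without the 2 mice. Leaving out the 2 mice also moved r from -0.24 to -0.74 for Fezf2 and from 0.04 to -0.48 for Tle4. In the other direction, r moved from -0.52 to -0.12 for Cux2 and from -0.04 to 0.08 for Cux1.

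**Figure D4:**
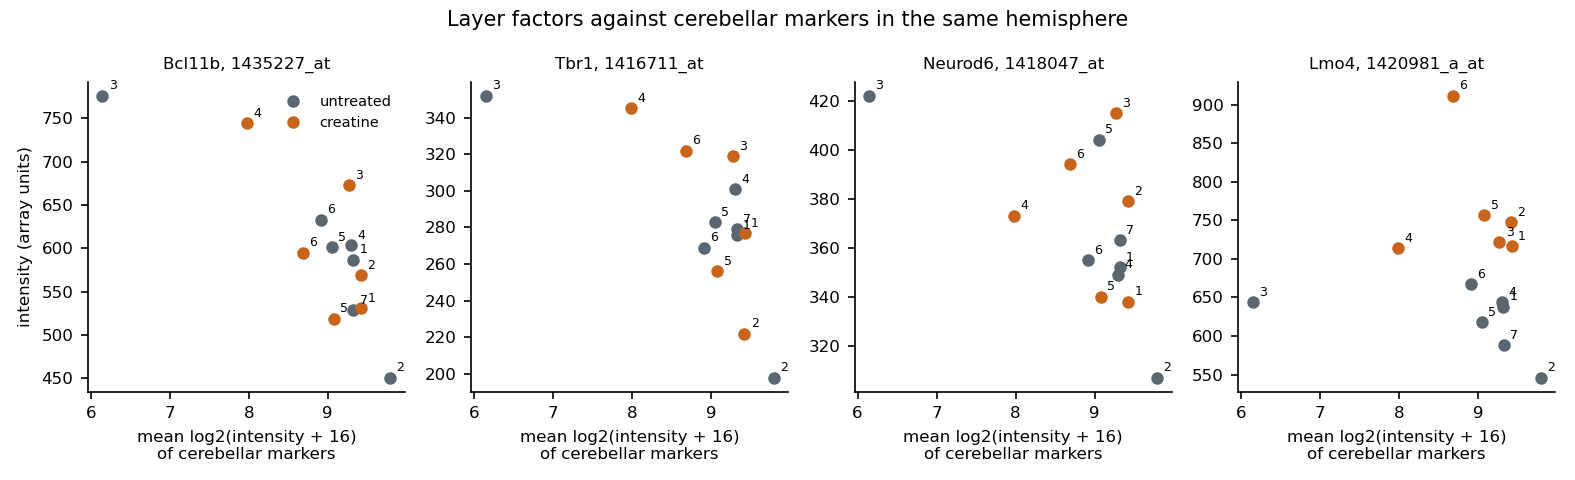
Intensity in array units of Bcl11b, Tbr1, Neurod6 and Lmo4 at their brightest probe sets (vertical) against the mean log2(intensity + 16) of 11 cerebellar markers (horizontal), 1 point per mouse, numbered by replicate within its group. Untreated replicate 3 lies far to the left, at 6.15, and has the highest Bcl11b, Tbr1 and Neurod6 values, while for Lmo4 all creatine-fed mice lie above all untreated mice.

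With the cerebellar marker mean as a covariate, the log2 difference of Lmo4 was 0.29 (limma adjusted p = 0.16), that of Bcl11b at 1438784_at 0.36 and that of Rorb at 1455799_at 0.65. When creatine-fed replicate 4 and untreated replicate 3 were both left out, they were 0.31, 0.43 and 0.87. With the mean of brainstem, cerebellar and olfactory bulb markers as a covariate, 5 of 9 deep layer probe sets were higher in place of 8, and Tbr1, Neurod6 and Bcl11b at 1435227_at turned to -0.025, -0.005 and -0.060.

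Markers of other cell types and regions were counted in the same way, and none passed limma's adjusted threshold. At an unadjusted p under 0.05 there were 4 of the myelin and oligodendrocyte markers, 5 of the brainstem ones and 3 of the astrocyte ones, all lower. The forebrain glutamatergic list held 1 at this level (Grin2a) and the striatal list 1 (Drd1), both higher. The hippocampal list held 1 (Wfs1) and the thalamic list 1 (Calb2), both lower. Over all 18161 named genes 11.2% reached that level, 650 of them higher and 1381 lower. At any p, 7540 named genes had a higher mean and 10621 a lower one. Of 11 myelin and oligodendrocyte markers 10 were lower in creatine-fed mice (median log2 difference -0.12), summing to 17841 to 20019 against 19542 to 24216. Of 14 brainstem and monoaminergic markers 11 were lower (median -0.35), and 8 of the 14 had means under the lowest array median in both groups. Of 12 astrocyte markers 10 were lower (median -0.08), while markers of neurons of any kind were split 4 to 4 (median -0.04). Of 8 markers of forebrain glutamatergic neurons 7 were higher (median 0.09), and striatal markers were split 5 to 5. The part of these markers in the members' values was not tested.

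The members were compared with each other at their brightest probe sets over the 13 mice, with group means subtracted, in 36 pairs. Tbr1 and Bcl11b, both deep layer genes, went together with r of 0.83 (permutation p = 6e-04, adjusted p = 0.011) and rho of 0.80 (permutation p = 0.0016, adjusted p = 0.029), and r was 0.86 without the 2 mice farthest out in Tbr1. Lmo4 and Fezf2, an upper and a deep layer gene, had r of 0.83 (permutation p = 0.00045, adjusted p = 0.011) and rho of 0.80 (permutation p = 0.0015, adjusted p = 0.029), and r was 0.72 without the 2 mice farthest out in Lmo4. Bcl11b and Neurod6 passed by Pearson's r (0.76, permutation p = 0.0025, adjusted p = 0.03) but not by rho (0.69, permutation p = 0.012, adjusted p = 0.11), and r was 0.49 without the 2 mice farthest out in Bcl11b. No other pair passed by either measure. Pearson's r with the cerebellar marker mean was -0.69 for Tbr1, -0.79 for Bcl11b, -0.60 for Neurod6, -0.29 for Lmo4 and -0.24 for Fezf2. The part of the cerebellar markers in these pairs was not tested. The paralogs Cux1 and Cux2 had r of 0.31 (permutation p = 0.31, adjusted p = 0.51) and rho of 0.25 (permutation p = 0.41, adjusted p = 0.68). The median r was 0.19 over 6 pairs of upper layer genes, 0.29 over 6 pairs of deep layer genes and 0.37 over 16 mixed pairs, so pairs of the same layer did not have the higher median.

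Among 11100 other genes, those most like a member across the 13 mice, with group means subtracted, were ranked by Pearson's r at brightest probe sets, as a description only, since the top of so many ranks is high by selection. Bcl11b was closest to Mmd (0.95), to Lmo3, a LIM-only relative of Lmo4 (0.95), and to Rpp25 (0.94). Tbr1 was closest to Foxp1, a forkhead factor of cortical and striatal neurons (0.92), then to 2900026A02Rik (0.92) and Dcaf12l1 (0.92). Lmo4 was closest to the synaptic vesicle protein Syngr3 (0.88), the metalloproteinase Mmp17 (0.87) and the mitochondrial malic enzyme Me3 (0.86), and Fezf2 to Me3 as well (0.92), then to Mllt1 (0.87) and Stxbp5 (0.86). For Neurod6 the closest were Bccip, Celf4 and Gnb1, at 0.90 to 0.86, and for Tle4 they were Tmem138, Tsen34 and Ssr4, at 0.90 to 0.86. For Rorb they were Wasf1, Cbarp and Tspan33, at 0.86 to 0.83, for Cux2 Pcdh8, Scara3 and 2900052N01Rik, at 0.84 to 0.82, and for Cux1 2810013P06Rik, Sema6c and Tmem223, at 0.80.

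Other transcription factors of cortical projection neurons gave a wider view. Of 22 measured at their brightest probe sets, 20 were higher and 2 lower in creatine-fed mice (median log2 difference 0.09), where 41.5% of 18161 named genes were higher. Of the 22, 0 passed the adjusted threshold and 3 had an unadjusted p under 0.05, all higher. Of the named genes 11.2% reached that level, 650 of them higher and 1381 lower. Mef2c, a MADS-box factor of excitatory neurons, had the smallest p of the 22 and was named for it. At 1421027_a_at it ran from 2188 to 2445 in creatine-fed mice and from 1571 to 2164 in untreated mice. Its groups did not overlap, as for 118 of 18161 named genes at their brightest probe sets. The log2 difference of Mef2c was 0.30 (limma adjusted p = 0.201). Lhx2, a LIM-homeodomain factor of the cortical field, read 393 ± 52.7 against 298 ± 49.4, a difference of 0.39 (limma adjusted p = 0.236). Tshz3, a zinc finger factor of deep layer neurons, differed by 0.19 and Foxp1 by 0.17. The log2 difference was 0.01 for Neurod2, 0.01 for Emx1 and 0.01 for Foxp2.

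Layer markers that are not transcription factors were higher in 14 of 19 (median log2 difference 0.06), where 41.5% of 18161 named genes were higher. Of the 19, 0 passed the adjusted threshold and 4 had an unadjusted p under 0.05, all higher. Over all named genes, 11.2% had such a p, 650 of them higher and 1381 lower. The 4 layer markers were the matrix protein Ccn3 (0.30), the syntaxin Stx1a (0.28), the semaphorin receptor Plxnd1 (0.28) and the potassium channel Kcnh5 (0.31). Kcnh5 was dim, at 27.5 ± 7.45 (SD, n = 6) against 19.3 ± 6.87 (SD, n = 7). Relatives and partners of the members were split, 7 higher and 9 lower of 16 (median -0.06). Of the 16, 0 passed the adjusted threshold and 1 (Ldb1, higher) had an unadjusted p under 0.05. Ldb1, the partner of Lmo4, read 239 to 310 in creatine-fed mice and 221 to 256 in untreated mice, a log2 difference of 0.16 (SE 0.07, limma adjusted p = 0.403). Creatine-fed replicates 1, 2, 5 and 6 lay above every untreated mouse for Ldb1, and replicates 3 and 4, at 239 and 244, lay within the untreated range. Bcl11a, the relative of Bcl11b, differed by 0.15, Tle2 by -0.13 and Tle5, a short Groucho-family member, by -0.09.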

How the data were processed

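The deposited table holds 1 intensity per probe set and array, in whole numbers on a linear scale. The authors had scaled arrays to a common level, since trimmed means of the arrays were equal. The submitters' processing notes name RMA, which returns log2 values, while the deposited values are linear. Which tool made these linear values is not stated in the labels. Array medians ran from 37 to 45, and Pearson's r between arrays from 0.975 to 0.987.

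Tests used log2(intensity + 16). Symbols came from the platform annotation, updated through Entrez IDs. The 45037 probe sets other than controls were fitted with limma 3.58.1 in R 4.3.3 (creatine minus untreated, no covariate, 2-sided, Benjamini-Hochberg over all, threshold 0.05). The number of arrays limits precision. Permutation tests were 2-sided, exact over 1716 splits or, for correlations, with 100000 resamples. Members, lists and tests were chosen with earlier results of these data known. All member probe sets are named; of each further cortical list, up to 4 genes by smallest p, with a few unchanged ones named after their values were seen. Alternatives were other offsets, the brighter 22519 probe sets, other scaling, covariates, a replicate block, trend and robust eBayes, and leaving out mice. Replicate numbers were not taken to pair mice. The fit was tested on simulated data.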

Additional observations from a re-analysis of the deposited data

Results flagged for a closer look

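Each end of a group was compared with its nearest neighbour over the 52 groups of member probe sets and 34 groups of marker lists, and chance marks about 1 group in 20. Among member probe sets 2 groups held a mouse set apart. Lmo4 read 912 in creatine-fed replicate 6, where the next mouse read 757, a gap of 0.783 of the group's range. Rorb at 1455799_at read 82 in creatine-fed replicate 4, where the next mouse read 232, a gap of 0.82 of the range.

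Among marker lists 3 groups did, by mean log2(intensity + 16). The cerebellar mean was 6.15 in untreated replicate 3 and 8.91 in the next mouse. The hippocampal mean was lowest in the same mouse, at 7.04 against 7.20. Its 9 markers include Neurod1, which read 169 in that mouse and 731 to 1461 in the other untreated mice. The part of Neurod1 in the low hippocampal mean was not tested. The endothelial mean was highest in untreated replicate 6, at 7.42 against 7.17.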

How the results depend on the processing

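The count of probe sets called in the whole table, 4, moved with most settings: 0 with an offset of 1, 36 with an offset of 50, 137 among the brighter 22519, 2 after quantile normalization, 161 with trend and robust eBayes, 1 with the regional marker covariate, 0 by the exact permutation test (limma gave 5345 at an unadjusted p under 0.05), 2 without creatine-fed replicate 2 and untreated replicate 3, 0 without creatine-fed replicate 4 and untreated replicate 3, and 0 to 6 when 1 mouse was left out. The brighter set tests fewer probe sets; for the other settings the cause was not tested. With the replicate number as a block, over 12 mice, it was 0, and 2 without the block in the same mice. Deviations of the 6 same-numbered pairs correlated at -0.06 to 0.15, so the numbers were not taken to pair mice.

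Among members 0 passed, and 1 (Lmo4) with trend and robust eBayes; leaving out 1 mouse gave 0 throughout. The count of members at an unadjusted p under 0.05, 7, ran from 4 to 9 when 1 mouse was left out. Upper layer probe sets with a higher mean, 8 of 16, ran from 8 to 9, and deep layer ones, 8 of 9, from 6 to 8, or 5 with the regional covariate.

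Of 361 values of member probe sets under settings other than leaving out 1 mouse, 351 kept their sign and their side of the threshold and 9 changed sign, all of small size: with the regional covariate Cux2 1450181_at (-0.025), Tbr1 (-0.025), Neurod6 (-0.005) and Bcl11b 1435227_at (-0.060) and 1452966_at (-0.028); Cux1 1425612_at after quantile normalization (0.026) and centring (0.021); and Bcl11b 1435227_at over 12 mice with and without the replicate block (-0.003 in both). Leaving out 1 mouse turned 13 of 338 values, at 6 probe sets: Cux1 1424668_a_at (range -0.191 to 0.009) and 1425612_at (-0.122 to 0.050), Cux2 1450181_at (-0.034 to 0.099), Tbr1 (-0.024 to 0.121), Bcl11b 1435227_at (-0.040 to 0.087) and Neurod6 (-0.004 to 0.070). The cerebellar covariate, the fit without creatine-fed replicate 4 and untreated replicate 3, and the 12-mouse fit without the block were chosen after seeing the data.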

Other observations

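The mean log2(intensity + 16) of olfactory bulb markers was 7.47 in untreated replicate 3 and 7.07 in untreated replicate 6, and lay between 6.16 and 6.71 in the other 11 mice. These were the untreated mice with the lowest cerebellar means, 6.15 and 8.91. Among creatine-fed mice, replicates 6 and 4 had the highest bulb means, 6.71 and 6.52, and the lowest cerebellar means, 8.68 and 7.98. Of 9 microglia markers 8 were higher in creatine-fed mice (median log2 difference 0.08), where 41.5% of named genes were higher. Of the 9, 0 passed limma's adjusted threshold and 0 had an unadjusted p under 0.05, against 11.2% of named genes.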
